A study of Homo sapiens with 24 samples.

Results

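HepG2 is an established human liver cancer line, and the comparison described here asks what the DNA methyltransferase inhibitor decitabine (5-Aza-CdR) changed in cells that were also given GSK-126, a blocker of EZH2, which methylates histone H3. It rests on 4 of the 24 total RNA libraries of a study of 3 such lines: 2 HepG2 libraries given both drugs, set against 2 given GSK-126 alone, over every gene and repeat. Decitabine was dosed at 100 nM and GSK-126 at 500 nM, each once a day on 3 days, and RNA was taken on day 14, well after the last dose. All 4 libraries received GSK-126. The other HepG2 libraries, 2 with vehicle (DPBS) and 2 with decitabine alone, are used beside them, as are the matching arms of SNU398 and SNU475, which are likewise wild-type liver cancer lines. SNU398 was harvested on day 14 and SNU475 on day 21. Libraries of a group carry the letter A or B. Nothing in the sources used here says whether the letters stand for separate cultures, so p-values measure only how much the libraries of a group vary, which may be technical.

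Decitabine is built into DNA in place of deoxycytidine and traps DNA methyltransferases there. Daughter strands then lose methyl groups at CpG sites over the following divisions. Genes held silent by methylated promoters, among them cancer-testis antigens, imprinted genes and endogenous retroviruses, are the ones known to return. EZH2 is the catalytic subunit of Polycomb repressive complex 2 and writes the methyl mark on lysine 27 of histone H3, a second and partly separate way to keep genes silent. GSK-126 competes with the methyl donor S-adenosylmethionine at that enzyme.

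Levels are given as RPKM (reads per kilobase of exon and per 1000000 reads) after scaling each library by 1 factor, in the order A, B. Changes are on the scale of log2(RPKM + 0.5), which understates the change of low genes, and were tested with limma over all 24 libraries with Benjamini-Hochberg adjustment over 19377 genes. A gene is said to have risen or fallen where its adjusted p was under 0.05. In units of 1000000 reads, the 4 libraries held between 32.605 and 49.327, with the 2 given both drugs the shallower pair, and 62.52% to 62.93% of reads fell in genes. All 12 hepatocyte identity markers were present in all 4 libraries. Their summed level was 10300 and 10360 RPKM with GSK-126 and 7567 and 7486 with both drugs. The sum is weighted toward abundant genes such as ALB and AFP, described below. Of the 12 markers, 2 rose and 1 fell, beside 36.9% and 28.8% of all genes, and their median change was 0.03. In bulk RNA, fewer cells of a kind and less RNA per cell cannot be told apart.

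Adding decitabine raised 7141 genes, or 36.9% of those tested, and lowered 5584, or 28.8%. Most of these changes were small. Counts of gene lists below are to be read beside these shares of all genes. At least 2-fold rises numbered 1145 (5.91%) and at least 2-fold falls 390 (2.01%), and at 4-fold the counts were 243 and 18. Large changes were therefore mostly rises. The level ranges of the GSK-126 pair and the pair given both drugs did not overlap in 1144 of the 1145 and in 389 of the 390, beside 78.3% of all tested genes. Of the 1145 genes, 645 lay under 0.5 RPKM with GSK-126 alone. The rises comprised 853 protein-coding genes and 164 long non-coding RNAs. Of the 13741 protein-coding genes tested, 6.21% rose at least 2-fold and 1.35% fell as much. Small RNA genes went the other way, with 4.25% of 1059 up and 9.16% down by 2-fold.

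The size of change moved with the base composition of the transcript. Over 10112 protein-coding genes, the Spearman correlation between the GC content of the longest transcript and the log2 change was 0.553. In the lowest decile by GC (median 37.1%) the median change was -0.44 and 80.6% of genes were called lower. In the highest decile (median 64.2%) it was 0.42 and 72.8% were called higher. The same correlation was 0.333 for decitabine against DPBS in HepG2, 0.144 for the matching comparison in SNU398 and -0.032 in SNU475. With the trend on GC removed from each library, 946 genes rose and 276 fell at least 2-fold. Of the 1106 large rises with a known GC, 1101 were still called higher, and of 358 large falls, 348 were still called lower. Counts with this setting are given beside some of the gene lists below. Its part in the small changes was not tested further.

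**Figure D1:**
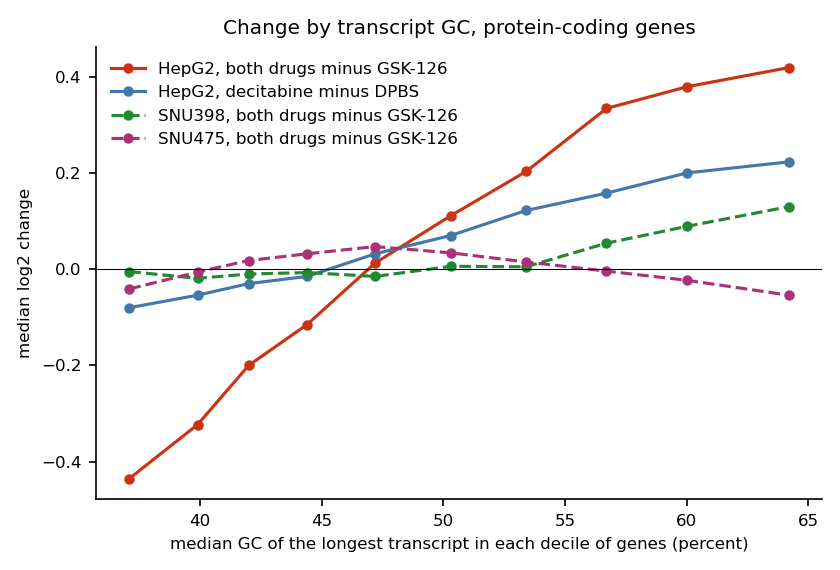
Median log2 change (vertical axis) in each decile of protein-coding genes ordered by the GC percent of their longest transcript (horizontal axis), for 2 HepG2 and 2 other comparisons. The red line, both drugs minus GSK-126 in HepG2, climbs from -0.44 to 0.42, and the lines for SNU398 and SNU475 stay much closer to 0.

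The mRNAs of the drugs' own targets were present in all 4 libraries. DNMT1, the maintenance DNA methyltransferase that decitabine traps, stood at 5.6 and 5.66 RPKM with GSK-126 and 8.46 and 8.31 with both drugs, a rise of 0.54 log2 (SE 0.0271, limma adjusted p = 1.71e-10). DNMT3B, which places new methyl groups, rose by 1.22, from 2.09 and 1.97 to 5.24 and 5.57 RPKM. UHRF1, which guides DNMT1 to newly copied DNA, rose by 0.97, from 5.34 and 5.42 to 11.4 and 10.6 RPKM. In these 3 genes, as in every other gene named here as risen or fallen, the GSK-126 pair and the pair given both drugs did not overlap. The same holds for 78.3% of all tested genes, and the rule that named the largest rises and falls required it. DNMT1, DNMT3B and UHRF1 had each been lower with GSK-126 than with DPBS. With DPBS, DNMT1 stood at 10.1 and 9.86 RPKM, DNMT3B at 3.01 and 3.29 and UHRF1 at 19 and 18.4. EZH2 mRNA, the target of GSK-126, went from 4.42 and 4.48 to 4.85 and 5.29 RPKM, a rise of only 0.17 log2. SUZ12, its partner in the complex, fell from 6.38 and 6.23 to 3.96 and 4.42 RPKM, by 0.54. Of 29 tested genes of the DNA methylation and Polycomb machinery, 9 rose and 15 fell, with a median change of -0.09 beside 0.04 over all genes. Among the 15 were BMI1, a subunit of the other Polycomb complex (-0.88), and TET3, an enzyme that oxidises methylcytosine (-0.71).

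The genes that rose most were near-silent with GSK-126 alone. Their 250 bases upstream of the first RefSeq start differ widely in CpG content, which is shown for 4 of them because the site of methylation is the CG pair. Sequences are from RefSeq on GRCh38.p14, read 5′ to 3′ on the gene's strand, with every CG in capitals.
CTSZ: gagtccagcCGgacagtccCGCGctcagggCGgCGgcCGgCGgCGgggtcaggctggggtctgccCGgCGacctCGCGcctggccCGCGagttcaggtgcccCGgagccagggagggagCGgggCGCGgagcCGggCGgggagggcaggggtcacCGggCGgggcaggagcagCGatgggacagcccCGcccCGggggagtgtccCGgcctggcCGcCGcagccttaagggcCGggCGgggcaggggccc
GSTP1: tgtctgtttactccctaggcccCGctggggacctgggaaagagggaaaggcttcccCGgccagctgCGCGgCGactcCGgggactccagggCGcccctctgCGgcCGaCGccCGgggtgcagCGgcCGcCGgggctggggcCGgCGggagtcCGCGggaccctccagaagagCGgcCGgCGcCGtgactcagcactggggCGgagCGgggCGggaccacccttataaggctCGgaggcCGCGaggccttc
MAGEA4: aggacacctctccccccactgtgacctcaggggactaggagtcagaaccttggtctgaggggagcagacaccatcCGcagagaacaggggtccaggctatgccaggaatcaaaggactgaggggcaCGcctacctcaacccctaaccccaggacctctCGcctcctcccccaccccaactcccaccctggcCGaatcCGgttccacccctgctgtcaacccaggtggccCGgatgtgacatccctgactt
PLA2G2A: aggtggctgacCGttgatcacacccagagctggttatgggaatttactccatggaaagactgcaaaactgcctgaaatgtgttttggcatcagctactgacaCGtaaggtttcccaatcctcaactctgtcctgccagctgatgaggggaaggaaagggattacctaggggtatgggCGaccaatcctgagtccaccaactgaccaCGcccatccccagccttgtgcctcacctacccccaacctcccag
The windows lie at chr20:59007255-59007504 (minus strand), chr11:67583562-67583811 (plus strand), chrX:151912224-151912473 (plus strand) and chr1:19979660-19979909 (minus strand), and hold 30, 28, 6 and 4 CG pairs. Over all 27305 windows in the table the median was 11. Only 10600 of the 19377 tested genes (54.7%) have a window, so the promoters of the raised and lowered genes were not compared as sets.

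PLA2G2A encodes a secreted phospholipase A2 of the acute phase response (chr1:20301925-20306932, hg19). It stood at 0.432 and 0.589 RPKM with GSK-126 and 157 and 151 with both drugs. It rose by 7.26 log2 (SE 0.0518, limma adjusted p = 2.96e-19), from a window with only 4 CG pairs. With decitabine alone it stood at 37.5 and 38 RPKM and with DPBS at 2.63 and 2.65, so both drugs together gave the highest of the 4 levels and GSK-126 alone the lowest. CTSZ, a lysosomal cathepsin with the CG-rich window shown, went from 0.181 and 0.0515 to 30.5 and 30.1 RPKM (5.65). GSTP1, a glutathione transferase whose promoter is methylated in liver and prostate cancer, went from 0.167 and 0.177 to 17.2 and 17.7 RPKM (4.74). CCND2, SPINT2 and CDKN2B, also on a list of 34 tested tumour suppressors known to be methylated in liver cancer, rose by 2.72, 3.25 and 2.36. Of the 34, 22 rose and 7 fell, with a median of 0.32 that was 0.191 after quantile normalization. PNMA5, of a family of neuronal tumour antigens, rose by 3.95, and 2 uncharacterised non-coding genes were as strongly raised. RP11-206M11.7 on chromosome 3 went from 0.0842 and 0.143 to 13.1 and 12.9 RPKM, and RP11-462G2.1 on chromosome 6 was listed at 0 in both GSK-126 libraries and reached 10 and 10.4.

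H19, the maternally expressed imprinted RNA next to IGF2 on chromosome 11 (chr11:2016406-2022700, hg19), showed the largest rise named here. Its level was 2.54 and 1.24 RPKM with GSK-126, 836 and 777 with both drugs and 555 and 525 with decitabine alone. It rose by 8.46 log2 (SE 0.388), and the 2 decitabine arms stood apart from the 2 others. MEG3, a maternally expressed RNA on chromosome 14, went from 0.0205 and 0.0172 to 7.83 and 7.48 RPKM. A pair of paternally expressed genes rose too: NNAT by 2.19 log2, and NDN, which was listed at 0 in both GSK-126 libraries and stood at 2.8 and 2.71 RPKM with both drugs. The list as a whole did not move one way. Of 23 tested imprinted genes 11 were higher (47.8%) and 6 lower (26.1%), beside 36.9% and 28.8% of all genes. The median was 0.17, but 0.053 without library A of both drugs, and 0.079 with the GC trend removed, where 9 rose and 8 fell. Among the 6 was KCNQ1OT1, a paternally expressed antisense RNA, which went from 3.34 and 3.16 to 1.68 and 1.65 RPKM (-0.79).

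**Figure D2:**
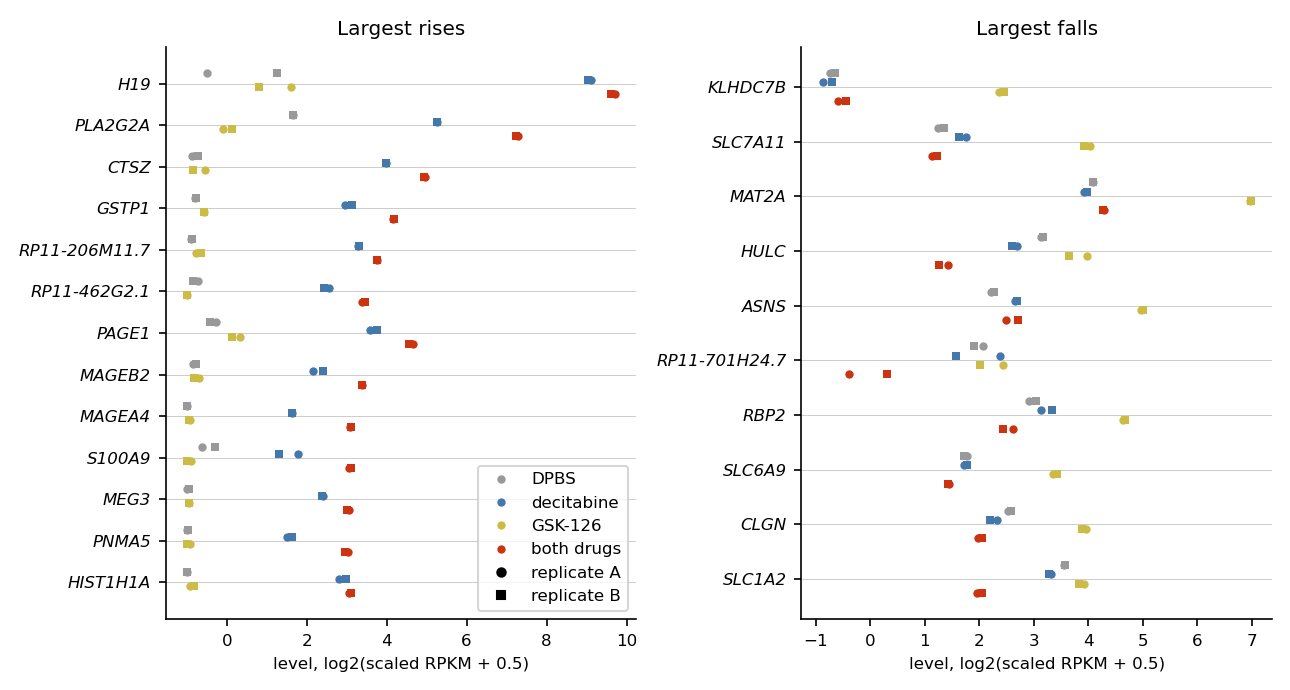
Level of the genes with the largest rises (left) and falls (right) in each HepG2 library, as log2(scaled RPKM + 0.5) on the horizontal axis, with colour for treatment, circles for replicate A and squares for B. For the rises, both decitabine arms lie to the right of both others, and for most falls GSK-126 alone (yellow) lies to the right of the other 3 arms.

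Cancer-testis antigens, which are normally limited to the male germ line and are targets of tumour immunity, were raised from near silence. Of 30 listed genes, 23 passed the filter on low values, and 21 of these rose and 0 fell, with a median of 2.44. A silent gene can pass that filter only through a group in which it is high, and cannot fall, so the count has a direction built in. PAGE1 went from 0.763 and 0.594 RPKM to 24.9 and 23, or 4.38 log2. MAGEB2 went from 0.115 and 0.0653 to 9.99 and 9.86 and MAGEA4 from 0.0296 and 0.0172 to 7.9 and 8.15. With decitabine alone MAGEA4 stood at 2.59 and 2.61 RPKM, between the pairs. PRAME (3.85), MAGEC2 (3.16) and PAGE5 (3.31) also rose from near 0. The 19 of the 23 genes with a promoter window had a median of 9 CG pairs, as against 11 over all windows, and the MAGEA4 window printed earlier has 6. MAGE and PAGE genes come in near-identical copies, so reads may be divided among neighbours such as PAGE2 and PAGE2B.

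Of 30 listed genes of the germ line outside that list, 13 passed the filter, and 11 of these were higher and 0 lower (median 0.98), under the same limit. Without the filter, 20 of the 30 were higher and 0 lower, with a median of 0.441. REC8, the meiotic cohesin subunit, went from 0.786 and 0.699 to 5.69 and 5.36 RPKM (2.28). TDRD12 and TDRD9, of the piRNA pathway that silences transposons in germ cells, rose by 1.66 and 1.62, and TDRD12 reached 1.22 and 1.33 RPKM. DAZL, a germ cell RNA-binding protein, was listed at 0 in both GSK-126 libraries and reached 0.751 and 0.753. HOX genes are classic Polycomb targets, and 6 of 34 rose and 1 fell (median 0.07). Most are low, and the counts depended on the setting. They were 19 and 1 with a pseudocount of 0.1 (median 0.294), 16 and 0 with voom on the reads behind the RPKM (median 1.347), 2 and 5 after quantile normalization, and 4 and 16 with the GC trend removed. HOXD1 was the exception in size, going from 4.56 and 4.65 to 10.1 and 10.4 RPKM (1.08), and it stood higher still with decitabine alone, at 16.5 and 15.8.

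The largest falls are given beside their levels with DPBS. MAT2A makes S-adenosylmethionine, the methyl donor (chr2:85766288-85772403, hg19). It stood at 16.5 and 16.6 RPKM with DPBS, 125 and 125 with GSK-126 and 18.9 and 18.7 with both drugs. It fell by 2.70 log2 (SE 0.0253, limma adjusted p = 4.49e-18), back near the DPBS level. SLC7A11, the cystine importer, fell by 2.80, from 15.8 and 14.6 to 1.68 and 1.83 RPKM, with 1.87 and 2.04 in DPBS. ASNS, asparagine synthetase, fell by 2.39, from 30.8 and 31.4 to 5.12 and 6, with 4.13 and 4.33 in DPBS. The pairs did not overlap in any of the 3, which the rule that named them required.

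SLC7A11 and ASNS belong to the amino-acid stress programme driven by the transcription factor ATF4, which answers uncharged tRNA and other stresses. Of its 40 tested targets 33 fell and 7 rose, 16 fell at least 2-fold, and the median was -0.84. MTHFD2, of mitochondrial folate metabolism, fell by 1.81 (56.3 and 55.3 to 15.3 and 15.7 RPKM). CTH of cysteine synthesis fell by 1.59, the glycine carrier SLC6A9 by 1.95 and the pseudokinase TRIB3 by 1.66. An exception was GDF15, a secreted stress hormone that p53 also induces, which rose from 37 and 39.4 to 133 and 116 RPKM. The same list had a median of 1.13 for GSK-126 minus DPBS and 0.13 for both drugs minus DPBS. These comparisons share libraries with the one described, so the 3 values are set side by side only. Decitabine without GSK-126, which shares none, gave a median of 0.31. ATF4 and its partner C/EBP bind a composite element, searched as TGATGNAAN on both strands. It occurs once in the ASNS window, in capitals here. Only 3 of the 29 windows of ATF4 targets (10.3%) hold it, beside 1.49% of the windows of tested genes and 3.18% of all windows. A match says nothing about binding in these cells.
ASNS: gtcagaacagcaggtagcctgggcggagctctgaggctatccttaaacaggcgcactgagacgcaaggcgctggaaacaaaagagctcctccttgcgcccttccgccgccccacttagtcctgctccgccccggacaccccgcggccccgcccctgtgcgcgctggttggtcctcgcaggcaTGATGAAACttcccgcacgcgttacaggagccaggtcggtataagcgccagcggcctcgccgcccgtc
The window lies at chr7:97872409-97872658 (minus strand). Of 20 tested genes of the methionine cycle, MAT2A included, 8 rose and 8 fell, beside 36.9% and 28.8% of all genes, and 3 fell at least 2-fold. The median was 0.07, and with the GC trend removed 5 rose and 12 fell (median -0.176). CBS, which commits homocysteine to cysteine synthesis, fell by 1.06, and BHMT2, which returns it to methionine, rose by 0.99.

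Other large falls had no list. KLHDC7B, a Kelch-domain gene, fell by 2.93, from 4.65 and 5 to 0.166 and 0.231 RPKM, with 0.101 and 0.138 in DPBS. HULC, a long non-coding RNA abundant in liver cancer, fell from 15.2 and 12.1 to 2.17 and 1.9, below its 8.26 and 8.5 in DPBS. RBP2, a retinol carrier of the gut, fell by 2.14, SLC1A2, a glutamate transporter, by 1.87 and CLGN, a testis chaperone, by 1.90. HULC, SLC1A2 and RBP2 ended below both the DPBS and the decitabine levels, RBP2 at 5.62 and 4.87 RPKM beside 7 and 7.71 in DPBS, while KLHDC7B ended above its 0.0448 and 0.115 with decitabine alone and above DPBS.

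Genes of DNA replication rose nearly without exception. Of the 40 listed genes, all tested, 36 rose and 0 fell, with a median of 0.67. TK1, the thymidine kinase of S phase, went from 5.96 and 6.27 RPKM to 25.9 and 23.9 (1.94). RRM2, of ribonucleotide reductase, rose by 1.35 (6.92 and 6.97 to 18.3 and 18.6), and the helicase subunit MCM2 by 1.32. These levels stayed below DPBS, where TK1 stood at 36.7 and 33.5 and RRM2 at 37.3 and 37.6 RPKM. The list's median was -1.52 for GSK-126 minus DPBS, -0.87 for both drugs minus DPBS and -0.64 for decitabine minus DPBS. Mitosis genes rose in 28 of 36 cases and fell in 5 (median 0.49), among the risers UBE2C (1.28) and the kinesin KIF20A (1.26). The site of E2F factors, which drive these genes at the start of S phase, was searched as TTTCCCGC or TTTGGCGC on both strands. It was found in 13 of 34 replication gene windows (38.2%) and in 1.96% of all windows, and PCNA, the sliding clamp of the replication fork, is shown with its match in capitals. PCNA stood at 36.4 and 36.4 RPKM with GSK-126 and 66 and 70.1 with both drugs (0.89).
PCNA: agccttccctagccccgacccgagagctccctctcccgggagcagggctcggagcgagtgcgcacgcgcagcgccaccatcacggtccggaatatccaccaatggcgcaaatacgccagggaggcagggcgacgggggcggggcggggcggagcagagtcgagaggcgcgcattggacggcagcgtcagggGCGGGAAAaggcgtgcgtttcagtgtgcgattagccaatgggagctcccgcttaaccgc
The window lies at chr20:5126623-5126872 (minus strand).

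Replication-dependent histone genes, whose mRNAs lack a poly(A) tail but are kept by ribosomal depletion, rose in 39 of 58 cases and fell in 8 (median 0.49). Only 27 of the 58 have a known transcript GC, so the GC setting is void for them. HIST1H1A, a linker histone, went from 0.0296 and 0.0676 to 7.81 and 8.06 RPKM, stood at 6.54 and 7.42 with decitabine alone and was listed at 0 in both DPBS libraries. HIST1H3G was listed at 0 in both GSK-126 libraries and reached 5.77 and 4.87. HIST1H2BE rose by 3.16. These genes are close copies of each other, so reads may be divided among them.

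Brakes on the cell cycle rose in the same libraries. CDKN1A, the p53-induced inhibitor p21, went from 16.1 and 16.7 to 78 and 71.5 RPKM, a rise of 2.15 log2 (SE 0.0546), with 43.5 and 44 with decitabine alone. CDKN2B, the inhibitor p15, went from 0.472 and 0.519 to 4.64 and 4.59, and CDKN2A reached 2.46 and 2.25 from 0.476 and 0.503. Of 32 tested p53 targets and inhibitors of cyclin-dependent kinases, 27 rose and 3 fell (median 0.66). FDXR (1.62), PHLDA3 (1.47) and DDB2 (1.41), which are direct p53 targets, were among the risers. CCNG1, another p53 target, fell from 65.8 and 56.9 to 18.7 and 21.9 RPKM (-1.57).

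Metallothioneins, small proteins that bind zinc and other metals, had been low with GSK-126. MT2A stood at 9.56 and 9.96 RPKM with DPBS, 6.81 and 5.1 with decitabine, 0.656 and 0.629 with GSK-126 and 14.4 and 12.2 with both drugs. It rose by 3.59 log2 over GSK-126 (SE 0.101, limma adjusted p = 2.79e-13) to a level above DPBS. MT1E rose by 2.36, to 2.59 and 2.85 RPKM, and stayed under its DPBS level of 6.18 and 6.08. Of 8 tested genes of the list 7 rose and 0 fell, and after quantile normalization 5 rose. The MT1 genes are near-identical copies and their reads may be divided. The core of the metal response element was searched as TGCACNC or TGCGCNC on both strands. It occurs 7 times in the MT2A window, in capitals, and at least once in 24.7% of all windows.
MT2A: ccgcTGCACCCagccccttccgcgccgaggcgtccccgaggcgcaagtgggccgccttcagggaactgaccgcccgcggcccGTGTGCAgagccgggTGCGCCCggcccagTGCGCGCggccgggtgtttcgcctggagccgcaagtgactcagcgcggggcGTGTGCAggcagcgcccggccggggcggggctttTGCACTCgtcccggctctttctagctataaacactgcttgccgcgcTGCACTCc
The window lies at chr16:56608334-56608583 (plus strand).

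Sugar and lipid metabolism moved up as well. Of 35 hypoxia and glycolysis genes 25 rose and 4 fell (median 0.36), among them SLC2A1, the glucose transporter, from 28 and 28.1 to 81.3 and 75 RPKM. PKM, pyruvate kinase, rose by 1.13 and stayed below its 79.1 and 77.4 in DPBS. Decitabine without GSK-126 had moved this list the other way, with a median of -0.99. Of 31 cholesterol and fatty acid synthesis genes, 23 rose and 4 fell (median 0.38). FADS2, a fatty acid desaturase, rose by 1.96, the sterol isomerase EBP by 1.68 and fatty acid synthase FASN by 1.22 (42.9 and 46.1 to 110.2 and 98.7 RPKM). CALR, a chaperone of the endoplasmic reticulum, rose from 122 and 123 to 327 and 320.2 RPKM, while 12 of the 20 chaperone genes rose and 7 fell. Of the 13 mRNAs of the mitochondrial genome, 9 rose and 2 fell (median 0.41).

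Hepatocyte transcription factors fell more often than they rose, by 14 to 5 of 24 (median -0.25), and by 17 to 3 of 23 with the GC trend removed. HNF4G fell by 1.41 (6.19 and 6.38 to 2.16 and 1.97 RPKM), ONECUT2 by 1.37 and the bile acid receptor NR1H4 by 1.12. HNF4A, the central factor of hepatocyte identity, stood at 75.5 and 77.5 RPKM with GSK-126 and 69.7 and 66.4 with both drugs and was not called (-0.17, limma adjusted p = 0.496). In a fit of the 8 HepG2 libraries it was called lower (limma adjusted p = 0.00198). CEBPD, an acute phase factor, rose from 4.95 and 5.57 to 16.6 and 14.7. Of 23 urea cycle and amino-acid breakdown genes, 6 rose (26.1%) and 10 fell (43.5%), beside 36.9% and 28.8% of all genes. With the GC trend removed 6 rose and 13 fell. HPD, of tyrosine breakdown, was higher by 1.10.

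Secreted liver proteins split. Albumin (ALB) stood at 4204 and 4196 RPKM with GSK-126 and 2048 and 2163 with both drugs, a change of -0.996 log2. Alpha-fetoprotein (AFP), a fetal liver protein made by many liver cancers, stood at 1910.0 and 1873 with GSK-126 and 679.5 and 702 with both drugs, a change of -1.45. The pairs are far apart, yet neither passed the fit over 24 libraries (limma adjusted p = 0.562 and 0.273). In a fit of the 8 HepG2 libraries both did, at 1.67e-06 and 1.4e-07, and the alternative model voom on the reads behind the RPKM gave 0.00141 and 2.3e-05. In the fit of 24 libraries 7 of 34 plasma protein genes rose (20.6%) and 8 fell (23.5%), beside 36.9% and 28.8% of all genes. In the HepG2 fit 12 rose and 18 fell. SERPINC1, antithrombin, fell by 1.28 (96.1 and 98.4 to 38.8 and 40.7 RPKM). APOA4, a lipid carrier, rose by 1.56. APOE rose by 0.73, but not with the GC trend removed (0.27, limma adjusted p = 0.191).

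Acute phase genes rose in 16 of 24 cases and fell in 0 (median 0.46). In the fit of 8 HepG2 libraries 16 of 21 rose and 3 fell (median 0.753), and voom gave 18 and 3 of 24. Beside PLA2G2A, HAMP, which encodes the iron hormone hepcidin, went from 0.506 and 0.77 RPKM to 6.29 and 5.73 (2.52), with 6.16 and 5.33 in DPBS. LBP, a binder of bacterial lipopolysaccharide, rose by 2.48 and SPINK1, a trypsin inhibitor, by 2.78. Haptoglobin (HP) went from 13.4 and 14.1 to 57.8 and 55 RPKM. The protease inhibitor A2M stood at 1084 and 1107 RPKM with GSK-126 and 564 and 567 with both drugs and was not called (-0.95, limma adjusted p = 0.132). A2M is 1 of the 3 that fell in the HepG2 fit (limma adjusted p = 1.27e-06), and it was lower with voom too (limma-voom adjusted p = 5.67e-06).

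S100 and annexin genes encode calcium-binding proteins, and of 19 tested 17 rose and 1 fell, with a median of 1.57. S100A6 went from 4.82 and 5.12 RPKM to 77.2 and 75, a rise of 3.81 log2 (SE 0.236), with 25.1 and 25.4 with decitabine alone. S100A9, known from myeloid cells, went from 0.0398 and 0 to 7.8 and 8.11, S100A4 rose by 3.75 and S100A11 by 2.91. KRT19, a keratin of bile duct and progenitor cells, went from 18.9 and 20.3 to 194 and 184 RPKM, and KRT8 and KRT18, keratins of all hepatocytes, rose by 1.81 and 1.42. Of 20 oncofetal and progenitor genes 10 rose (50%) and 5 fell (25%), beside 36.9% and 28.8% of all genes. The median was 0.27, but 0.032 over 17 genes in the fit of 8 HepG2 libraries and 0.174 with the GC trend removed. HMGA2 (-0.87) and LIN28B (-0.57) were among the 5 that fell.

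Of 31 genes of epithelial and mesenchymal state, 24 rose and 5 fell (median 0.49, and 0.788 over the 26 in the fit of 8 HepG2 libraries), and both kinds were among the risers. SPINT1 and SPINT2, inhibitors of epithelial surface proteases, rose by 3.76 and 3.25. MYL9, a myosin light chain of contractile cells, went from 4.48 and 4.61 to 61.9 and 59.3 RPKM, and vimentin (VIM), the mesenchymal filament, from 0.0887 and 0.355 to 1.82 and 2.99. Among 27 targets of the co-activator YAP, 16 rose and 8 fell. The median was 0.34, but 0.176 without library B of both drugs and 0.183 after quantile normalization. EDN1, which encodes endothelin, had the largest change of these, from 0.782 and 0.479 to 8.46 and 8.1 RPKM (2.97).

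Interferon-stimulated genes rose in 26 of 38 cases and fell in 3, with a median of 0.26, and in 31 and 1 cases with the GC trend removed. After quantile normalization 18 rose and 5 fell (median 0.118). IFI6, a mitochondrial protein induced by interferon, went from 6.18 and 5.91 to 34.6 and 32.7 RPKM (2.38, SE 0.0506). IFI27 went from 0.033 and 0.0882 to 2.02 and 1.97, and OAS1, a sensor of double-stranded RNA, rose by 1.40 and ISG15 by 1.27. Of 24 tested RNA sensors and signalling genes, 15 rose and 4 fell, with IRF1 going from 1.87 and 2.02 to 4.46 and 4.39 RPKM. Among 23 antigen presentation genes, 17 rose and 3 fell (median 0.51). HLA-B went from 12.6 and 13.8 to 32.4 and 29.9 RPKM and HLA-C rose by 0.99. HLA genes are similar and their reads may be divided. Of 25 chemokines and cytokines, 15 rose and 2 fell (median 0.83). Without library A of both drugs the median was 0.267 over 23 genes, and without library B it was 0.315. CXCL2, which draws neutrophils, went from 2.54 and 2.88 to 24.9 and 23.4, IL18 rose by 2.16 and CCL20 fell by 1.01, from 105 and 105 to 49.4 and 54.3.

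Markers of other cell types were measured beside these groups. Immune-cell markers summed to 176.7 and 173.3 RPKM with GSK-126 and 344.9 and 354.4 with both drugs, nearly all of it LYZ. LYZ stood at 176 and 172 RPKM with GSK-126 and 337 and 347 with both drugs and was not called (limma adjusted p = 0.135). It was called higher in the fit of 8 HepG2 libraries (limma adjusted p = 5.77e-07), with voom (limma-voom adjusted p = 5.93e-06), with only the 4 libraries and with a pseudocount of 1. PTPRC, which encodes the pan-leukocyte protein CD45, was listed at 0 in both GSK-126 libraries and stood at 0.0162 and 0.0159 RPKM with both drugs, and MS4A1 was listed at 0 in all 4. CD14 rose from 0.453 and 0.433 to 4.49 and 4.63. Endothelial markers summed to 0.7099 and 0.6781 RPKM and to 1.605 and 1.746, with CLEC4G, EMCN and ERG at 0 in all 4. Stellate and fibroblast markers summed to 8.951 and 9.992 and to 22.29 and 22.58, mostly ACTA2, which went from 8.08 and 8.79 to 20.2 and 19.8 RPKM, and THY1 and DCN stayed under 0.05 RPKM. Their part in the results was not tested.

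**Figure D3:**
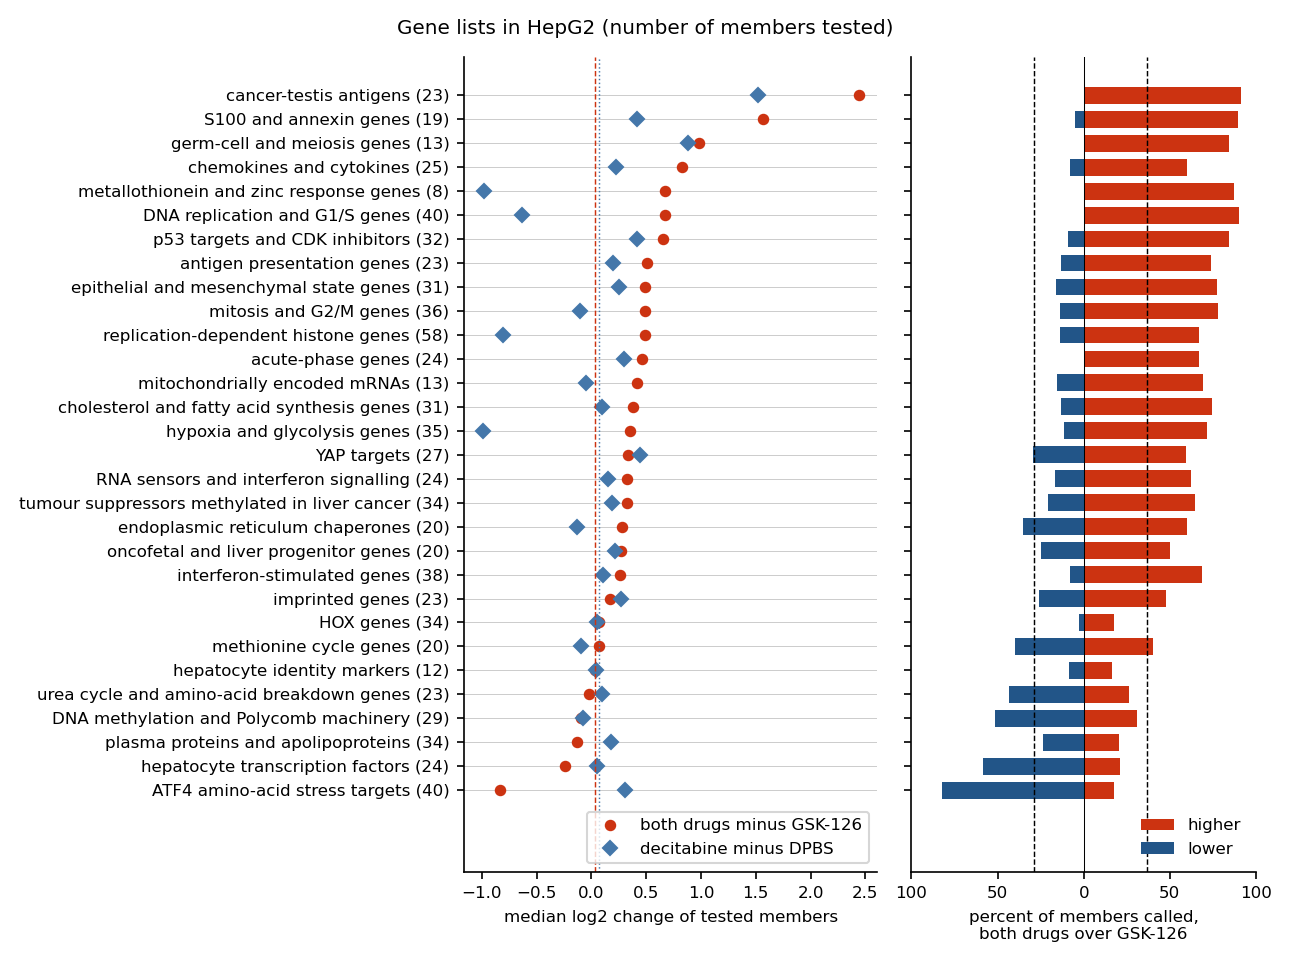
For each gene list (number of tested members in brackets), the median log2 change of both drugs minus GSK-126 (red circles) and decitabine minus DPBS (blue diamonds) on the left, and on the right the percent of members called higher (red) or lower (blue) for both drugs over GSK-126. Dashed and dotted lines mark the values over all tested genes, including 36.9% higher and 28.8% lower. Cancer-testis antigens stand at the top with 2.44 and ATF4 targets at the bottom with -0.84.

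The next question was whether decitabine did the same with GSK-126 as without it. Against DPBS, decitabine alone raised 6958 genes (35.9%) and lowered 3542 (18.3%). It shares no library with the comparison described here. Across 12074 genes with means summing to at least 2 RPKM, the 2 sets of changes had a Pearson correlation of 0.518 and a Spearman correlation of 0.351, and genes are not independent replicates. Of the 1145 genes that decitabine raised at least 2-fold on top of GSK-126, 362 (31.6%) were also raised 2-fold without it. Those 362 are 58.7% of the 617 raised by decitabine alone. A further look without the 2-fold limit found 972 of the 1145 called higher and 64 called lower by decitabine alone. Among large falls, 8 genes were common, or 2.05% of 390 and 7.48% of 107. Of the 390, 138 were called lower by decitabine alone and 76 higher.

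The difference between the 2 decitabine effects was tested directly in the same fit. That difference is signed, with minus without GSK-126, so larger means more positive and smaller means more negative, not stronger or weaker. The effect was larger with GSK-126 for 4862 genes (25.1%) and smaller for 5402 (27.9%). Which of these counts led depended on the setting. They were 5458 and 4357 without scaling, 5173 and 4893 after quantile normalization and 5472 and 4968 with the GC trend removed. The 1145 large rises had a median of 1.42 with GSK-126 and 0.74 without it, and 939 of them tested as larger and 25 as smaller. Since these genes were chosen for a large change in 1 of the 2 effects, that count leans toward larger by choice. H19, at 8.46 with and 8.69 without GSK-126, gave a difference of -0.23 (SE 0.549, limma adjusted p = 0.775) that was not called. That of PLA2G2A was, at 3.65 log2 (SE 0.0732). Cancer-testis antigens had a larger effect in 20 of 23 and a smaller one in 0, with a median difference of 0.91.

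For replication genes all 40 had a more positive effect with GSK-126. The list's median changed sign, from -0.64 for decitabine over DPBS to 0.67 for its addition to GSK-126. TK1 gave -0.71 without and 1.94 with GSK-126. Of 35 hypoxia and glycolysis genes, the effect was more positive in 31 and more negative in 1. Their median was -0.99 without and 0.36 with GSK-126. Of 8 metallothionein list genes, the effect was more positive in 7 and more negative in 0, with MT2A at -0.68 without and 3.59 with GSK-126. For ATF4 targets the effect was more negative in 34 of 40 and more positive in 3. Their median was 0.31 without and -0.84 with GSK-126. SLC7A11 stood at 0.39 without and -2.80 with GSK-126, and MAT2A at -0.14 and -2.70. The GSK-126 libraries enter both the change made by GSK-126 and the effect of adding decitabine to it, so no relation between those changes was computed.

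**Figure D4:**
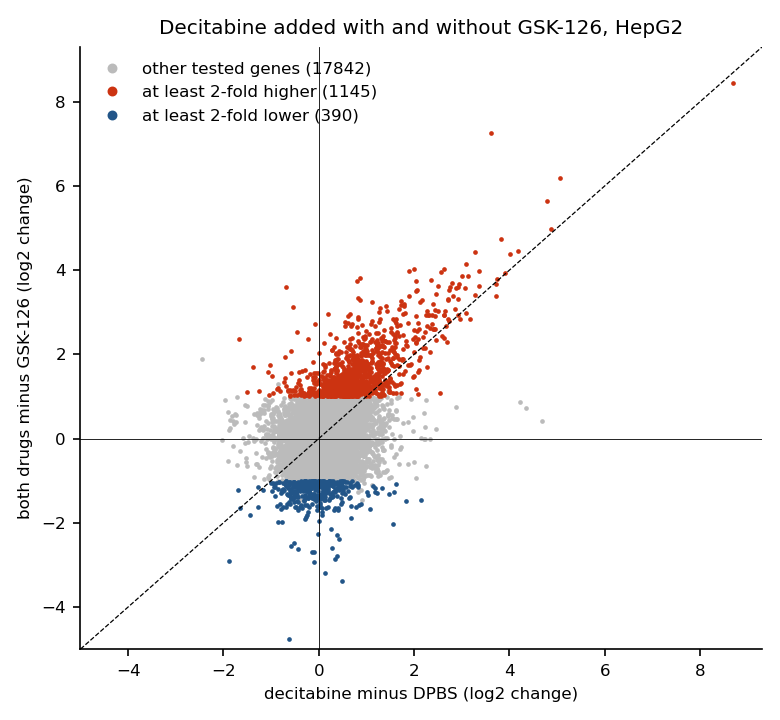
Log2 change made by decitabine in the absence (horizontal axis, decitabine minus DPBS) and presence (vertical axis, both drugs minus GSK-126) of GSK-126, 1 point per tested gene, with at least 2-fold rises in red and falls in blue. The dashed line marks equal change: most red points lie to the right of 0 and above the line, while blue points spread on both sides of 0.

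The same addition was made in SNU398 and SNU475. In HepG2 the change was above that in SNU398 for 6499 genes (33.5%) and below it for 5313 (27.4%), and against SNU475 the counts were 6575 (33.9%) and 5275 (27.2%). Which direction led depended on the setting. Without scaling the counts were 5095 and 6548 against SNU398 and 6151 and 5315 against SNU475. After quantile normalization they were 5598 and 6173 against SNU398 and 5589 and 6133 against SNU475. SNU475 was harvested later, so line and day cannot be told apart there. In the other lines 282 genes (SNU398, 1.46%) and 242 genes (SNU475, 1.25%) rose at least 2-fold. Of all tested genes, 26.6% rose and 23.5% fell in SNU398, and 18.2% rose and 17.7% fell in SNU475. Large falls numbered 259 in SNU398 (1.34%) and 104 in SNU475 (0.537%). Of the large rises in the other lines, 100 and 74 were among the 1145 of HepG2, which is 35.5% and 30.6% of the other lines' lists and 8.73% and 6.46% of HepG2's. Of the large falls in HepG2, 30 were shared with SNU398 (7.69%) and 19 with SNU475 (4.87%).

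Cancer-testis antigens rose in 21 of 23 cases in SNU398 (median 1.40) and in 11 in SNU475, where 2 fell (median 0.13). Levels with GSK-126 alone in SNU475 differed by gene: the means were 21.84 RPKM for MAGEA12, 20.16 for CTAG2 and 0.03984 for MAGEA4. ATF4 targets fell in 37 of 40 cases in SNU398 (median -1.44), while in SNU475 14 rose, 10 fell and the median was 0.04. Replication genes rose in 31 of 40 cases and fell in 3 in SNU398, and rose in 7 and fell in 8 in SNU475. PLA2G2A rose more in HepG2 than in either other line, by 7.15 over SNU398 and 7.19 over SNU475 on the log2 scale, and CTSZ by 4.71 and 5.21. PLA2G2A was listed at 0 with GSK-126 in both other lines. CTSZ was already at a mean of 58.2 RPKM with GSK-126 in SNU475 (79.31 with both drugs, n = 2 each), and at 0.05928 in SNU398 (0.5684 with both drugs). SLC7A11 fell in SNU398 as well, by 0.60, and changed by -0.36 in SNU475. GDF15 changed by -3.03 in SNU398 and 1.69 in HepG2, a difference of 4.72.

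Repeats were measured in RPM, reads per 1000000, summed over the loci of a subfamily. Of 843 tested subfamilies, 98 rose (11.6%) and 521 fell (61.8%). Of 445 LTR subfamilies, the remains of retroviruses, 72 rose and 212 fell, and of 6 subfamilies of SVA, a young composite element, 6 rose. SVA summed to 102.3 and 104.2 RPM with GSK-126 and 249.3 and 252.1 with both drugs. LINE subfamilies, the autonomous retrotransposons, fell in 122 of 136 cases and rose in 4, from a sum of 10750 and 10040 RPM to 6324 and 6778. The GC setting used for genes was not applied to repeats. The part of base composition in the changes of repeats, here and below, was not tested.

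LTR12C, the promoter of the HERV-9 family, gave 154.2 and 155.8 RPM with GSK-126 and 709.3 and 704.6 with both drugs, a rise of 2.19 log2 (SE 0.0405, limma adjusted p = 4.07e-31). With decitabine alone it gave 600.7 and 588.4 RPM. Its relatives LTR12_ and LTR12E rose by 2.61 and 1.80. HERV-Fc1-int, the internal part of another retrovirus, was listed at 0 in both GSK-126 libraries and gave 3.311 and 2.994 RPM with both drugs. The strongest single locus outside genes was an LTR12C copy at chr1:63227011-63228332 (hg19), 21474 bases from ATG4C. It gave 0.3041 and 0.2076 RPM with GSK-126 and 33.58 and 29.82 with both drugs. The HERV9-int copy that adjoins it (chr1:63226201-63227010) went from 0.162 and 0.09234 to 11.96 and 9.764 RPM. A HERVH-int copy 81712 bases from WDR72 (chr15:53721366-53724226) went from 0.04005 and 0.09155 to 11.16 and 10.49.

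Among the falls, L1MA9, an old LINE-1 family, went from 77.54 and 67.15 to 25.67 and 27.2 RPM, a fall of 1.43 log2, though decitabine alone had raised it to 83.74 and 77.55. Arthur1A, a DNA transposon, went from 9.954 and 8.506 to 2.699 and 3.051. Counting only loci outside gene bodies, 83 of 313 LTR subfamilies rose and 84 fell, LINEs fell in 96 of 118 cases and rose in 4, and SINEs rose in 20 of 36 cases and fell in 3, whereas over all loci 3 of 46 SINE subfamilies rose and 14 fell. All 6 SVA subfamilies rose in both counts.

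**Figure D5:**
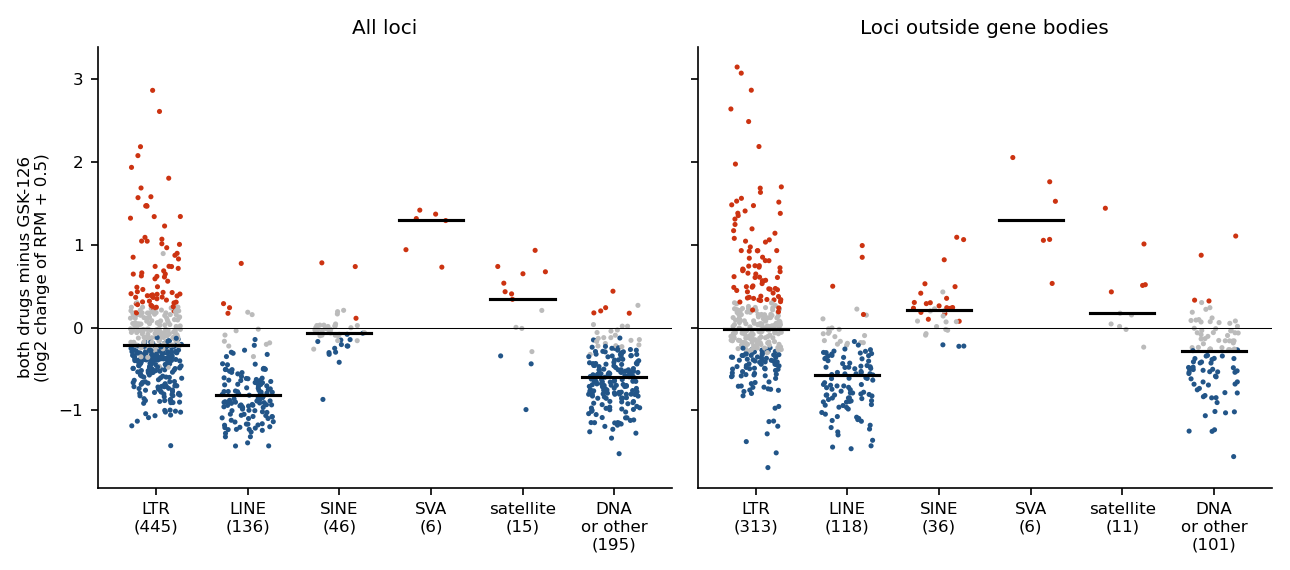
Log2 change of each repeat subfamily, both drugs minus GSK-126 (vertical axis), by class with the number tested in brackets, over all loci (left) and over loci outside gene bodies (right). Red points were called higher, blue points lower and grey points not called, bars are class medians. SVA lies wholly above 0 and LINE almost wholly under it in both panels, while the LTR class reaches from under -1 to about 3.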

How the data were processed

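Per the labels' protocols, ribosomal RNA was removed from total RNA, and the libraries were stranded and read from a single end. The deposited tables hold RPKM per gene and per repeat locus on hg19. HISAT2 and featureCounts are named in the submitters' processing notes; versions and annotation release: not given in the sources used here. RPKM values were whole multiples of 1 read (100% of values within 0.15 reads), which gave the reads behind them, from 32.605 to 60.367 a library in units of 1000000.

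Libraries were grouped by the treatment label. Gene RPKM values were divided by a median-of-ratios factor over 8211 genes (0.847 to 1.158). Genes at 0.5 RPKM or more in at least 2 libraries were tested with limma 3.58.1 (R 4.3.3) on log2(RPKM + 0.5), with 12 group means, all 24 libraries, and a robust mean-variance trend. P-values were adjusted by the Benjamini-Hochberg method over 19377 genes, and the threshold was 0.05. Repeat RPKM values were turned into RPM, summed by subfamily, kept at 1 RPM in at least 2 libraries and tested likewise without scaling. The fit was tested on simulated data with known changes.

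The members and gene lists were chosen with earlier results of these data known. Named genes are the largest 14 rises and 10 falls with at least 1 RPKM in the higher group, at least 200 bases and no overlap. They also include up to 4 called members of each list, the drug targets, and the 5 highest and 5 lowest tested differences. Those differences were taken under the same conditions, only among genes also changed at least 2-fold between both drugs and GSK-126 in HepG2. Genes beyond these were chosen after their values were seen. A Y-linked locus that the rule names is not described. The GC alternative was chosen after seeing the data, and uses the longest transcript of each gene. Promoter windows come from the RefSeq table.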

Additional observations from a re-analysis of the deposited data

Results flagged for a closer look

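Several genes stood out because the effect of adding decitabine differed between settings, by the test of the difference in the limma fit. Here and below they were picked only among genes changed at least 2-fold by adding decitabine to GSK-126 in HepG2. That choice leans the differences toward large values. In HepG2, the signed effect was more positive with than without GSK-126 by 4.27 log2 for MT2A, 4.03 for MT1E and 3.65 for PLA2G2A. It was also more positive by 3.07 for CHST15, a sulfotransferase of chondroitin chains, and by 2.99 for HAMP. It was lower by the following differences: -2.79 for RP11-116D2.1, -2.81 for ASNS, -2.83 for KLHDC7B, -3.19 for SLC7A11 and -3.31 for RP11-391M20.1. The last is a pseudogene whose call is lost on recovered reads.

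Between lines, the change in HepG2 exceeded that in SNU398 by 7.15 for PLA2G2A, 6.27 for H19, 4.72 for GDF15, 4.71 for CTSZ and 4.07 for RP11-462G2.1. It lay under that in SNU398 with differences of -2.43 for KLHDC7B, -2.60 for MYO10, an unconventional myosin, -2.88 for GPAM, which starts glycerolipid synthesis, -2.90 for RP11-701H24.7 and -4.61 for the linker histone HIST1H1D.

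Against SNU475, whose harvest was later, the change in HepG2 was higher by 7.19 for PLA2G2A, 5.21 for CTSZ, 4.78 for GSTP1 and 4.64 for H19. The differences were -2.40 for HULC, which was under 0.05 RPKM in SNU475, -2.44 for SLC7A11, -2.59 for MTHFD2, -2.89 for MAT2A and -3.15 for KLHDC7B.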

How the results depend on the processing

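The number of changes of at least 2-fold depended on how low values were treated. With a pseudocount of 0.1 in place of 0.5, 2115 genes rose and 780 fell at least 2-fold. With a pseudocount of 1 the counts were 717 and 221, and with voom on the recovered reads 3148 and 888, beside 1145 and 390. Medians of lists with many low genes moved likewise: that of cancer-testis antigens was 4.339 with a pseudocount of 0.1 and 6.7 with voom, in place of 2.439, and that of interferon-stimulated genes 0.631 and 0.947, in place of 0.259. In the fit of 8 HepG2 libraries, 4 of 12 hepatocyte identity markers rose and 5 fell, in place of 2 and 1, with a median of 0.029. Counting only repeat loci outside gene bodies, 235 subfamilies fell in place of 521. Quantile normalization gave 46.7% of called genes higher in place of 56.1%, with the median change of all genes at -0.028 in place of 0.037.

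Leaving out 1 library at a time gave 1028 to 1191 genes at least 2-fold higher and 365 to 451 lower. Over all settings, 3304 of 3337 values of named genes and repeats kept their direction and their side of the threshold, 16 lost the call, 17 gained one and 0 reversed. The 17 were ALB, AFP, A2M, LYZ, HNF4A and PTPRC under 1 or more settings. The lost calls included DNMT3A, EZH2 and EED in the fit of only 4 libraries, FOXA2 and SERPINC1 with a pseudocount of 0.1, KLHDC7B against SNU398 and HULC against SNU475 with voom, and APOE with the GC trend removed.

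The letters A and B were not treated as pairs. Their deviations correlated at -0.129 between the 2 groups over 11677 genes, and between -0.129 and 0.135 over the HepG2 groups. Such values cannot show whether libraries with the same letter were handled together. With a replicate block, 1146 genes rose and 393 fell at least 2-fold, and with the pairing crossed 1147 and 389. With 2 libraries a side, the spread within each group is poorly known. The abundant genes ALB, AFP, A2M and LYZ were not called in the fit over all libraries. All were called when only the 4 libraries compared were fitted (limma adjusted p = 4.27e-05, 1.82e-05, 2.34e-05 and 3.68e-05 in turn). Why these calls differed between the fits was not tested. The shallowest library held 32.605, in units of 1000000 reads. At that depth genes under about 0.5 RPKM on 1 side carry folds that rest on the pseudocount.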

Other observations

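Some genes had no reads with GSK-126 alone. Of 1248 tested genes at 0 in both GSK-126 libraries, which could not fall, 290 were called higher with both drugs, a smaller share than the 36.9% of all genes, and 55 reached a mean of at least 1 RPKM. Several lie beside MEG3 in the imprinted cluster of chromosome 14: the small nucleolar RNA SNORD114-21 reached 13.8 and 16.9 RPKM and SNORD113-4 5.2 and 7.91. The cystatin genes CST4 and CST1 of chromosome 20 reached 2.22 and 1.8 and 1.71 and 1.81. The cancer-testis antigen gene CTAG2 of chromosome X reached 1.82 and 1.79. By chromosome, 11% of 544 tested genes on chromosome 20 and 9.95% of 643 on X rose at least 2-fold, beside 5.91% of all tested genes. The shares were 2.64% of 681 on chromosome 8 and 2.1% of 333 on chromosome 13. These were chosen after their values were seen.

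Decitabine added to GSK-126 raised 29 genes at least 2-fold in all 3 lines. They include cancer-testis antigens (MAGEA4, MAGEB2, PAGE2, PAGE2B, PAGE5 and SSX1), the germ cell gene MAEL, the histone genes HIST1H1A and HIST1H1T, S100A4, the vitamin D hydroxylase CYP24A1 and the interferon-stimulated gene IFI27. CYP24A1 rose by 3.34 log2 in HepG2, 1.06 in SNU398 and 2.48 in SNU475. SFN, the cell cycle protein 14-3-3 sigma, rose by 2.08, 1.95 and 1.98 on the log2(RPKM + 0.5) scale. Its mean levels differed between lines, at 4.762 and 21.66 RPKM in HepG2, 0.1045 and 1.834 in SNU398 and 0.474 and 3.331 in SNU475, for GSK-126 and both drugs in turn.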
